A study of Mus musculus with 12 samples.

Results

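Wnt signalling genes were read in immortalized mouse embryonic fibroblasts (MEFs), connective tissue cells taken from the embryo, that were Sirt3 wild-type (WT) or knockout (KO) and male or female. The genes described are the protein-coding genes named as a Wnt ligand, a Frizzled receptor (Fzd), a secreted Frizzled-related protein (Sfrp), a Dickkopf protein (Dkk) or an R-spondin (Rspo), with Frzb, Wif1, Lrp5, Lrp6, Ror1, Ror2, Lgr5, Ctnnb1, Axin2, Lef1, Tcf7, Nkd1 and Nkd2 added by name. Of 34866 genes in the deposited table, 21850 of them protein-coding, 54 met this rule. They comprised 19 ligands, 10 Frizzled receptors, 5 co-receptors or other receptors, 4 R-spondins, 10 secreted antagonists and 6 intracellular mediators, targets or feedback genes.

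The 12 libraries of polyadenylated RNA fell into 4 groups of 3, WT and KO of each sex. WT cells (Sirt3+/+) came from 129S1/SvImJ mice and KO cells (Sirt3-/-) from a Sirt3 knockout stock. Embryos were taken at day 13 and every group, the WT included, was immortalized with a stably transfected SV40 T-antigen plasmid. Cells of passage 6 were seeded in triplicate wells at 400000 cells each and RNA was extracted after 48 h. The number of lines per group is not given in the sources used here, so a line's own traits cannot be told apart from genotype or sex. As WT and KO cells came from different stocks, traits of a stock cannot be told apart from genotype either. P-values measure the spread between these libraries, which may be technical.

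Values are TPM, the share of each gene in the transcripts of a library after scaling by transcript length, so that levels of different genes can be set side by side. The study's methods name a target number of reads for each library, but TPM do not show how many were reached. Total Sirt3 mRNA was not lower in the libraries labelled KO: it ran from 6.59 to 9.07 TPM in male WT, 8.88 to 11.0 in male KO, 7.399 to 8.69 in female WT and 7.57 to 9.06 in female KO. Whether those transcripts were intact cannot be read from a value for the whole gene, and the groups are called KO as labelled. A figure legend of the study also lists an immunoblot of Sirt3 protein, which was not examined here. The Y-linked gene Ddx3y stood at 31.7 TPM or more in every male library and at 0.218 or less in every female library. All 10 fibroblast markers checked reached a mean of 1 TPM in each group. They summed to between 10250.8 and 11368.9 TPM in WT males and 12389.5 and 13092.6 in KO males. In females they summed to between 8193.28 and 8338.08 in WT and 10416.5 and 10675.4 in KO. Among the markers of other cell types, some were near 0 in every library, with a highest value of 0.053 TPM for Krt5, 0.604 for Pecam1, 0.116 for Ptprc and 0.0887 for Myog, and Adgre1 at 0 in all 12 libraries, while each list also held a gene with a group mean over 1 TPM. The 6 epithelial markers, mainly Krt18 and Epcam, summed to between 9.54 and 10.6 TPM in WT males, 0.603 and 1.12 in KO males, 6.41 and 7.66 in WT females, and 1.93 and 2.25 in KO females. The 6 cartilage and bone markers summed to between 46.7 and 55.0 TPM in WT males, 76.9 and 92.1 in KO males, 58.8 and 69.7 in WT females, and 78.2 and 87.0 in KO females. Within this list Col2a1, Acan and Sox9 had higher means in KO of both sexes, while Runx2 and Bglap had lower ones. Col2a1 went from 1.66 to 20.4 TPM in males and from 9.04 to 22.7 in females. Runx2 went from 34.9 to 31.6 in males and from 41.6 to 36.8 in females. Sp7 had means of 0.332 or less. The 5 neural markers, mainly Sox2 and Tubb3, summed to between 24.0 and 28.3 TPM in WT males, 13.9 and 16.8 in KO males, 19.6 and 21.1 in WT females, and 20.5 and 23.5 in KO females. Sox2 alone had means of 14.1 TPM in male WT, 1.14 in male KO, 2.20 in female WT and 6.31 in female KO. For the 5 muscle markers, mainly Acta1, the sums were 9.25 to 11.5 TPM in WT males, 5.38 to 5.91 in KO males, 12.9 to 16.1 in WT females, where Des had a mean of 6.26 beside 0.128 in KO females, and 8.05 to 10.2 in KO females. The 5 endothelial markers, mainly Kdr, summed to 1.88 to 2.19, 1.42 to 1.63, 4.76 to 5.76 and 1.98 to 2.37 TPM in the same order, and the 5 leukocyte markers, mainly Cd68, to 4.97 to 7.87, 6.10 to 11.4, 6.41 to 8.78 and 4.18 to 7.69. Apart from the leukocyte sums, which overlapped, and the neural sums of the female groups, which also did, these marker sums moved with genotype, as several genes below did, and their part in the results was not tested. In bulk RNA, fewer cells making a transcript and less of it per cell cannot be told apart.

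Wnt proteins are lipid-modified secreted signals that bind Frizzled receptors together with the co-receptors Lrp5 or Lrp6, which stabilizes beta-catenin (Ctnnb1) and lets it act in the nucleus with transcription factors of the TCF/LEF family. A separate, beta-catenin-independent branch uses receptors such as Ror1 and Ror2 and directs cell shape, movement and polarity. R-spondins strengthen the signal by keeping Frizzled receptors at the surface, whereas Sfrp proteins and Wif1 bind the ligands and Dickkopf proteins occupy the co-receptors. In embryonic mesenchyme these signals pattern the limbs and direct cells between bone, cartilage and fat.

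34 of the 54 genes averaged 1 TPM or more across the libraries and were tested with the other genes that did, 12504 in all, by limma on log2(TPM+1) with Benjamini-Hochberg adjustment. A gene is said to be called at an adjusted p under 0.05, and log2 differences are on that scale, which understates the change of low genes. Of those 34, 5 had a group mean under 1 TPM and passed through a group where they were higher (Wnt2, Wnt2b, Wnt4, Wnt7a and Ror1), and 20 genes lay under the filter. Between male KO and male WT, 19 of the 34 genes were called, 9 higher and 10 lower in KO, where 21.6% of all genes tested were called, 10.7% higher and 10.9% lower. Between female KO and female WT, 8 were called, 3 higher and 5 lower, where 11.5% of all genes were, 5.63% higher and 5.84% lower. Male WT and female WT differed in 12, 7 higher and 5 lower in males, against 12.8% of all genes (6.26% and 6.56%), and this count was 7 without male WT replicate 1 or without female WT replicate 3. Male KO and female KO differed in 15, 11 higher and 4 lower in males, against 16.6% (8.17% and 8.39%). The sex by genotype interaction, which tests whether the KO to WT difference was unequal between the sexes, was called for 16, 10 with the greater KO minus WT value in males and 6 in females, against 13.0% (6.70% and 6.33%). Without the filter 19, 6, 13, 12 and 17 of 52 members were called in these 5 comparisons, beside 10.4%, 5.03%, 5.69%, 7.52% and 6.98% of 22401 genes. The libraries of the groups compared did not overlap for 24 of the 34 genes between the male genotypes, 19 between the female genotypes, 21 between the WT groups and 22 between the KO groups, beside 40.0%, 33.6%, 33.4% and 35.4% of all genes tested. Members are read without strand, since no source used here states a stranded counting. In the GENCODE annotation 10 of them share from 3.16% to 17.8% of their exonic bases with a gene on the opposite strand. They are Axin2, Ctnnb1, Fzd5, Fzd6, Lef1, Rspo3, Sfrp2, Wnt11, Wnt5a and Wnt7b. Reads from the shared bases cannot be told apart by strand. Ulk4, opposite Ctnnb1, averaged 1.39 TPM and Gm8398, opposite Wnt11, 0.0533, and for the other opposite genes no level was available. The median absolute log2 difference of the 34 genes was 0.44 between the male groups and 0.23 between the female groups, beside 0.17 and 0.13 over all genes tested.

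The plot of KO to WT differences in each sex shows that the genes did not fall along one line. 7 genes were called in both sexes, and 3 of them, Wnt5a, Wnt9a and Sfrp2, differed in opposite directions. The other 4, Wnt10b, Wnt7a and Tcf7, lower in KO, and Dkk3, higher in KO, differed in the same direction. Sfrp2 and Dkk3 kept both calls under every alternative processing described below. The male calls of Wnt5a and Tcf7, the female calls of Wnt9a and Wnt10b and both calls of Wnt7a were lost in at least 1. Over all genes tested 5.84% were called in both sexes, and 18.8% of those in opposite directions. 8 genes were called in none of the 5 comparisons: Wnt2, Fzd2, Fzd6, Fzd9, Lrp6, Ror1, Ctnnb1 and Nkd2.

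**Figure D1:**
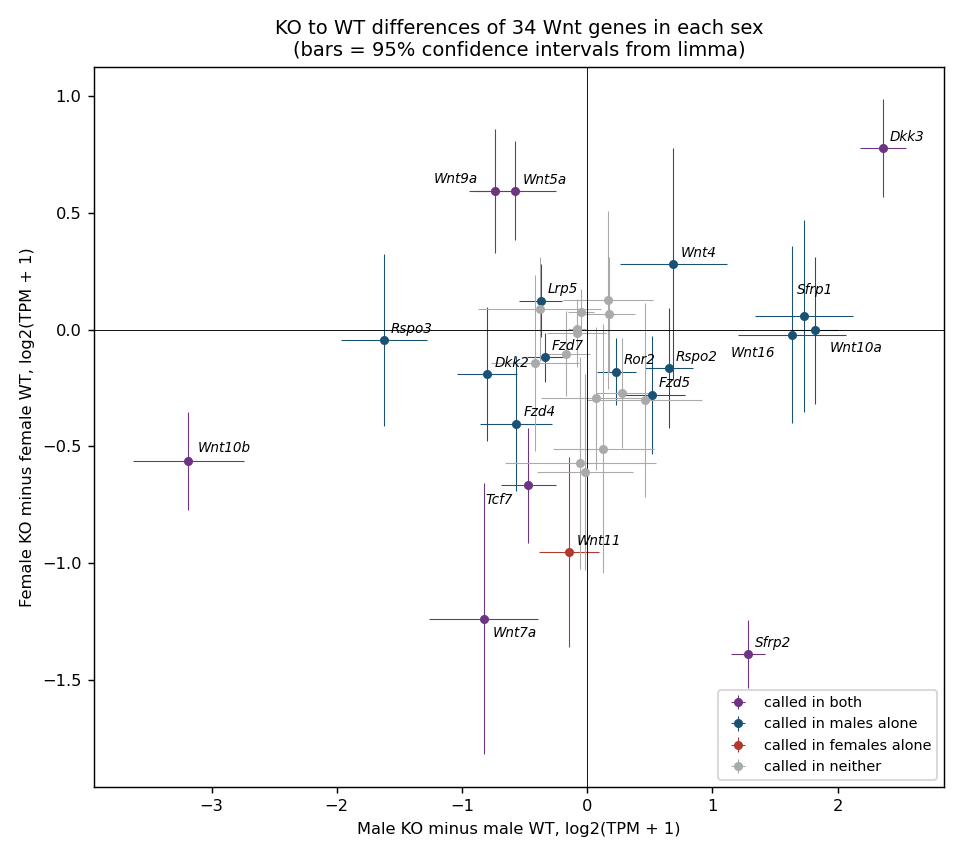
KO minus WT difference of each of the 34 tested Wnt genes on the log2(TPM+1) scale, male libraries on the x axis and female libraries on the y axis, with 95% confidence intervals from limma as bars. Dkk3 lies at 2.36 and 0.78, Wnt10b at -3.19 and -0.56, and Sfrp2 at 1.28 and -1.39, while Wnt10a, Wnt16 and Sfrp1 lie far to the right and near 0 on the y axis.

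The sequences upstream of 3 of these genes, chosen after their values were seen, are shown as examples of genes called in both sexes: Wnt10b, lower in KO of both, and Wnt9a and Sfrp2, which differed in opposite directions. The 12 genes called in males and not in females are not among them. The window before Dkk1 is added because it holds the TCF/LEF core 2 times, while its gene was almost silent. A window of Lef1, which had group means from 3.49 to 7.59 TPM, also holds the core 2 times and is not printed. The core searched was CTTTGA or its reverse complement TCAAAG, and capitals mark it. Each run is the 250 bases before the RefSeq start in GRCm38.p6, 5′ to 3′ on the strand of the gene.
Wnt10b promoter, chr15:98778151-98778400, minus strand: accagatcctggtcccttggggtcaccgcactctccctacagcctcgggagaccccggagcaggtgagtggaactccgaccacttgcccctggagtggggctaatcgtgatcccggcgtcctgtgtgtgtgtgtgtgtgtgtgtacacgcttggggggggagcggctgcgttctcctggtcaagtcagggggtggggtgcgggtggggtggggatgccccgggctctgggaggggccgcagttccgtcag
Wnt9a promoter, chr11:59306680-59306929, plus strand: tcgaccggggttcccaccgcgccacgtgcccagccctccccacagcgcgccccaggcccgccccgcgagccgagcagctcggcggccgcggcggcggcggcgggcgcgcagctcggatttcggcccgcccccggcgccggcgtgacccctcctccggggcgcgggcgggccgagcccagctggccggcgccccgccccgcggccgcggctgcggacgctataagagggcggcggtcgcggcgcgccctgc
Sfrp2 promoter, chr3:83766071-83766320, plus strand: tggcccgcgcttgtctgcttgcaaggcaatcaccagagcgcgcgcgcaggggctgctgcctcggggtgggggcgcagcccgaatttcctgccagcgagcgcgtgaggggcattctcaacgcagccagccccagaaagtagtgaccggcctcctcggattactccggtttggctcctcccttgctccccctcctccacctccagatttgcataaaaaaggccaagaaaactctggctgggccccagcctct
Dkk1 promoter, chr19:30549497-30549746, minus strand: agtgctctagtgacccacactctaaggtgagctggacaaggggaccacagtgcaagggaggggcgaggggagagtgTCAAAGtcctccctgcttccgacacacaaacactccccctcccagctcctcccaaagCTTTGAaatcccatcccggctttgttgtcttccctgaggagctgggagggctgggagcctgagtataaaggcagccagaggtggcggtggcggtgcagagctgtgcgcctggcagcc
Windows before a RefSeq start were matched for 37 of the 54 genes, and 7 of them (18.9%) held the core in at least 1 window, beside 15.8% of the 27025 genes with a window. The windows of the Wnt genes had a median GC content of 66.8% and a median of 21 CpG dinucleotides, beside 52.4% and 6 over all windows. Among the 4 printed, GC content was 84.4% for Wnt9a with 48 CpG, 66.8% for Wnt10b with 14, 63.6% for Sfrp2 with 16 and 60.8% for Dkk1 with 6. These letters describe the windows and do not show that a factor binds there.

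The ligand genes held different shares of their total in different groups. Their summed level was 116 ± 6.55 TPM in male WT, 118 ± 7.005 in male KO, 103 ± 3.85 in female WT and 98.7 ± 4.17 in female KO (SD, n = 3 each), and different ligands made it up. Wnt10a held 40.1% ± 0.902 of ligand TPM in male KO and 10.9% ± 0.989 in male WT, and about 4% in each female group (3.96% ± 0.0867 in WT and 4.15% ± 0.449 in KO). Wnt5a held 52.7% ± 5.37 in female KO and 32.9% ± 1.64 in female WT. Wnt10b held 20.0% ± 2.45 in male WT and 1.43% ± 0.438 in male KO.

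**Figure D2:**
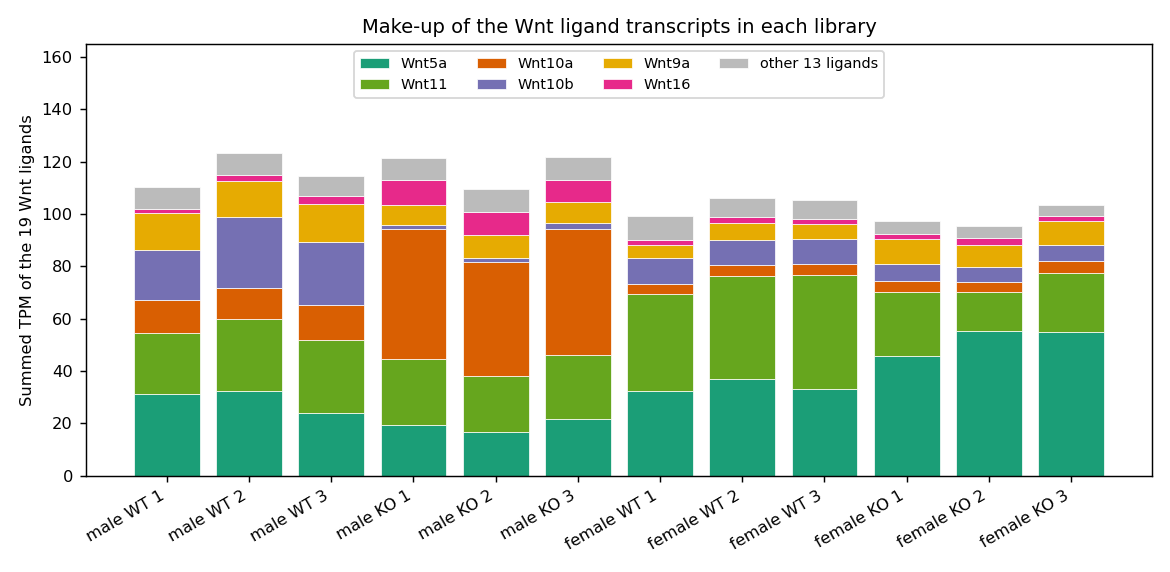
Summed TPM of the 19 Wnt ligand genes, with 1 stacked bar for each of the 12 libraries and 1 segment for each of the 6 leading ligands, the other 13 ligands being joined in grey. The Wnt10a segment is tallest in the 3 male KO libraries (mean share of the bar 40.1%), the Wnt5a segment in the 3 female KO libraries (52.7%) and the Wnt11 segment in the 3 female WT libraries (38.8%).

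In male WT the leading ligands were Wnt5a at 29.1 TPM, Wnt11 at 26.3 and Wnt10b at 23.3, whose libraries overlapped, followed by Wnt9a at 14.2 and Wnt10a at 12.6, which did not overlap each other. In male KO the order was Wnt10a at 47.2, Wnt11 at 23.7, Wnt5a at 19.1, Wnt16 at 8.98 and Wnt9a at 8.16, with overlap between Wnt11 and Wnt5a and between Wnt16 and Wnt9a. In female WT it was Wnt11 at 40.2, Wnt5a at 34.04, Wnt10b at 9.45, Wnt9a at 5.80 and Wnt10a at 4.10, with no overlap between neighbours. In female KO Wnt5a stood first at 52.0, above Wnt11 at 20.7, Wnt9a at 9.25, Wnt10b at 6.08 and Wnt10a at 4.11, again with no overlap between neighbours.

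Wnt10b (ENSMUSG00000022996.15, chromosome 15 of GRCm38 from 98770712 to 98778150) encodes a ligand of the beta-catenin branch that favours bone over fat formation, and showed the largest difference of any tested Wnt gene in males. In replicates 1 to 3 it measured 19.03, 26.9 and 24.0 TPM in WT males, 1.24, 1.52 and 2.30 in KO males, 9.74, 9.24 and 9.36 in WT females, and 6.45, 5.89 and 5.91 in KO females. No 2 groups overlapped, and both KO groups were lower than the WT of their sex. The means differed 13.8-fold in males (log2 difference -3.19, SE 0.19, adjusted p = 5.93e-05) and 1.55-fold in females (log2 difference -0.56, SE 0.09, adjusted p = 0.0107). The difference was unequal between the sexes (interaction -2.62, SE 0.21, adjusted p = 1.02e-05). Male WT stood above female WT (log2 difference 1.21, adjusted p = 0.00139), and male KO below female KO (log2 difference -1.42, adjusted p = 0.00199).

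Wnt10a (ENSMUSG00000026167.14, chromosome 1 from 74791516 to 74804179), the closest relative of Wnt10b and a ligand of the same branch, moved the other way in males. Its levels were 12.5, 12.1 and 13.4 TPM in WT males, 49.96, 43.6 and 48.1 in KO males, 3.82, 4.26 and 4.22 in WT females, and 4.04, 3.53 and 4.76 in KO females. The 3 male KO libraries stood above all others, the 3 male WT libraries came next, and the female groups overlapped. Male KO exceeded male WT 3.73-fold (log2 difference 1.82, SE 0.08, adjusted p = 1.6e-05) and female KO 11.5-fold (log2 difference 3.24, SE 0.11, adjusted p = 6.72e-06). Between the female genotypes the log2 difference was -0.0026, with a 95% interval from -0.32 to 0.31, and the interaction was called (1.82, SE 0.14, adjusted p = 6.51e-06). Male WT also exceeded female WT 3.08-fold (log2 difference 1.42, adjusted p = 0.000193).

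Wnt16 (ENSMUSG00000029671.15, chromosome 6 from 22288227 to 22298522), a ligand known for its part in cortical bone, followed a similar pattern at a lower level. It stood at 1.51, 2.37 and 2.91 TPM in WT males, 9.68, 8.85 and 8.41 in KO males, 1.86, 2.56 and 1.97 in WT females, and 1.82, 2.39 and 2.01 in KO females. Male KO lay apart from the other 3 groups, which overlapped. It was 3.97-fold higher than male WT (log2 difference 1.64, SE 0.18, adjusted p = 0.00108) and 4.33-fold higher than female KO (log2 difference 1.70, adjusted p = 0.000187). The female genotypes differed by -0.02 (95% interval from -0.40 to 0.36), and the interaction was 1.66 (SE 0.24, adjusted p = 0.000739).

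Wnt5a (ENSMUSG00000021994.15, chromosome 14 from 28504750 to 28527448), the best known ligand of the beta-catenin-independent branch, differed by genotype in opposite directions. It measured 31.3, 32.3 and 23.8 TPM in WT males, 19.1, 16.8 and 21.6 in KO males, 32.2, 36.7 and 33.2 in WT females, and 45.9, 55.2 and 54.8 in KO females. KO lay below WT in males and above it in females without overlap, while the WT groups of the sexes overlapped. Female KO was 1.53-fold higher than female WT (log2 difference 0.59, SE 0.09, adjusted p = 0.00913), and male KO 1.52-fold lower than male WT (log2 difference -0.57, SE 0.14, adjusted p = 0.0267). The male call was lost without male WT replicate 1 or 2 or male KO replicate 1 or 2, with log2 differences from -0.71 to -0.49 when 1 library was left out. The interaction (-1.17, SE 0.18, adjusted p = 0.000968) and the difference between the KO groups (-1.40, SE 0.11, adjusted p = 0.000259) were called.

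Wnt9a (ENSMUSG00000000126.11, chromosome 11 from 59306928 to 59333552), which acts in joint formation, showed the same opposition. The libraries gave 14.2, 13.8 and 14.6 TPM in WT males, 7.75, 8.85 and 7.89 in KO males, 5.27, 6.54 and 5.60 in WT females, and 9.88, 8.55 and 9.33 in KO females. Male WT was highest and female WT lowest, and the KO groups met between them and overlapped. KO was 1.74-fold lower in males (log2 difference -0.73, SE 0.09, adjusted p = 0.00163) and 1.59-fold higher in females (log2 difference 0.59, SE 0.11, adjusted p = 0.0198). The female call was lost without female WT replicate 1 or 3 or female KO replicate 1 or 3, with log2 differences from 0.54 to 0.67. WT males exceeded WT females 2.45-fold (log2 difference 1.16, adjusted p = 0.000595), the KO groups differed by -0.16 (95% interval from -0.40 to 0.08), and the interaction was -1.33 (SE 0.13, adjusted p = 4.8e-05).

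Wnt11 (ENSMUSG00000015957.12, chromosome 7 from 98835112 to 98855195), a ligand mainly of the beta-catenin-independent branch, was set apart by the female WT libraries. Its values were 23.4, 27.4 and 28.2 TPM in WT males, 25.4, 21.2 and 24.6 in KO males, 37.3, 39.7 and 43.6 in WT females, and 24.4, 15.1 and 22.5 in KO females. Every female WT library lay above the other 9, which overlapped across groups. Female KO was 1.95-fold lower than female WT (log2 difference -0.95, SE 0.17, adjusted p = 0.017) and male WT 1.53-fold lower than female WT (log2 difference -0.59, SE 0.09, adjusted p = 0.00744). Between the male genotypes the difference was -0.14 (95% interval from -0.38 to 0.10). The interaction was 0.81 (SE 0.21, adjusted p = 0.0273). The female call was lost without any 1 of the female WT libraries, with log2 differences from -1.08 to -0.75. The interaction call was lost without male WT replicate 1, male KO replicate 1 or 3 or female WT replicate 2 or 3, with values from 0.61 to 0.94.

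Wnt7a, a ligand of limb patterning, was low and lower still in KO of both sexes. It passed the filter through the WT groups, since both KO means were under 1 TPM. The WT libraries held 1.39, 1.96 and 1.80 TPM in males and 3.57, 1.998 and 1.65 in females, and the KO libraries 0.529, 0.653 and 0.406 in males and 0.505, 0.462 and 0.260 in females. Neither KO group overlapped its WT group, and the sexes overlapped within each genotype. The log2 difference was -0.83 in males (SE 0.18, adjusted p = 0.0191) and -1.24 in females (SE 0.24, adjusted p = 0.0227). The male call was lost without male WT replicate 2 or 3 or male KO replicate 3 (-0.92 to -0.76), and the female call without female WT replicate 2 or any 1 of the female KO libraries (-1.40 to -1.01). With a pseudocount of 0.1 in place of 1 the differences were -1.54 and -2.26.

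Wnt4 and Wnt2b, both ligands of the beta-catenin branch in several tissues, were called in 1 comparison each. Wnt4 stood at 0.531, 0.968 and 0.916 TPM in WT males, 2.07, 1.88 and 1.72 in KO males, 0.947, 0.634 and 0.566 in WT females, and 0.887, 1.56 and 0.843 in KO females. It passed the filter through the KO groups, with means of 1.89 TPM in male KO and 1.098 in female KO. Only the male genotypes were called (log2 difference 0.69, SE 0.18, adjusted p = 0.0354), and the call was lost without any 1 of the 6 male libraries, with values from 0.57 to 0.75. With a pseudocount of 0.1 the difference was 1.17. Wnt2b stood at 2.14, 2.12 and 2.17 TPM in WT males, 1.48, 1.40 and 1.19 in KO males, 1.11, 0.934 and 1.09 in WT females, and 0.846, 0.786 and 0.919 in KO females, with no overlap between any of the groups. The call was between the WT groups (log2 difference 0.62, SE 0.15, adjusted p = 0.0367) and was lost without any 1 of the 6 WT libraries (0.58 to 0.64), and a pseudocount of 0.1 gave 0.97. Wnt2 was called nowhere, at 0.888 ± 0.0467 TPM in male WT, 1.07 ± 0.157 in male KO, 1.95 ± 0.761 in female WT and 1.04 ± 0.194 in female KO (SD, n = 3 each).

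**Figure D3:**
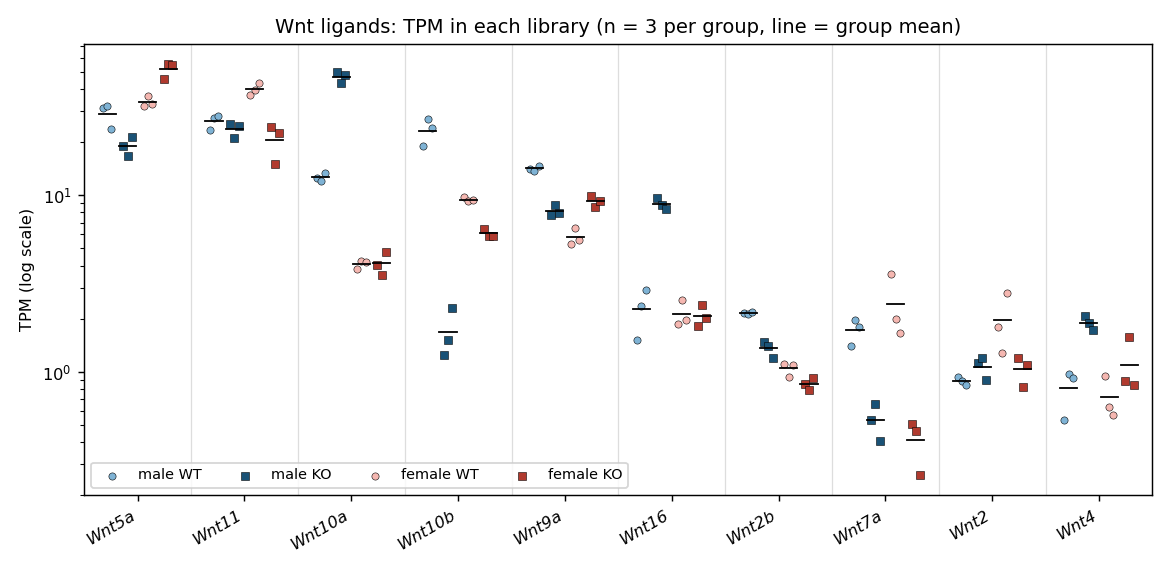
TPM of the leading Wnt ligands in each of the 12 libraries, on a log axis, with points for libraries and lines for group means, grouped by sex and genotype. Wnt10a is highest in male KO (mean 47.2 TPM), Wnt10b in male WT (23.3), Wnt5a in female KO (52.0) and Wnt11 in female WT (40.2).

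The other 9 ligands had a mean under 1 TPM. Of these, 3 reached a mean of 1 TPM in a group: Wnt5b at 1.96 ± 0.799 TPM and Wnt6 at 1.501 ± 0.445 in male KO, and Wnt7b at 1.01 ± 0.591 in male WT (SD, n = 3 each). In the fit without the filter, Wnt6 was called between the KO groups (log2 difference 1.04, SE 0.19, adjusted p = 0.0454). Its libraries held 0.995, 1.83 and 1.68 TPM in male KO and 0, 0.299 and 0.333 in female KO, beside 0.574, 0.242 and 0.603 in male WT and 0.422, 0.316 and 0.322 in female WT. Wnt1, Wnt3, Wnt3a and Wnt8a stayed at group means of 0.253 TPM or less, and Wnt8b and Wnt9b were listed at 0 in all 12 libraries.

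The Frizzled receptors are the membrane proteins that bind the ligands. Their summed level was 164 ± 1.89 TPM in male WT, 156 ± 7.38 in male KO, 158 ± 4.16 in female WT and 149 ± 0.146 in female KO (SD, n = 3 each). 9 of the 10 were tested, and Fzd10 stayed at 0.0116 TPM or less in every group. Fzd2 led at 57.2 ± 1.103 TPM in male WT, 55.2 ± 0.961 in male KO, 55.2 ± 1.44 in female WT and 58.2 ± 1.19 in female KO and was called in no comparison. Fzd7 came next, followed by Fzd6, which was also called nowhere and had group means between 17.2 and 21.04 TPM.

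Between the male genotypes 3 of the 9 Frizzled genes tested were called, beside 21.6% of all genes, and between the female genotypes none were called in the limma fit, beside 11.5%, where Fzd7, Fzd9, Fzd5, Fzd4 and Fzd1 had an unadjusted p under 0.05. Fzd7 gave 44.1, 45.7 and 46.4 TPM in WT males and 33.7, 37.9 and 35.7 in KO males, 1.27-fold lower (log2 difference -0.34, SE 0.06, adjusted p = 0.00921). Its female values were 46.5, 44.7 and 44.2 TPM in WT and 41.8, 40.7 and 42.0 in KO, and every KO library was below every WT library of its sex (female log2 difference -0.12, 95% interval from -0.22 to -0.01, adjusted p = 0.142). Fzd4, a receptor needed for vessel growth in the retina, held 4.75, 4.34 and 4.72 TPM in WT males, 2.56, 2.95 and 2.84 in KO males, 3.85, 3.95 and 3.85 in WT females and 2.61, 2.48 and 3.02 in KO females. It was lower in male KO (log2 difference -0.57, SE 0.12, adjusted p = 0.0172), a call lost without male WT replicate 1 or 3 or male KO replicate 1 (-0.60 to -0.52). In females the difference was -0.40 (95% interval from -0.69 to -0.11, adjusted p = 0.084).

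Fzd5 and Fzd1 stood highest in male KO. Fzd5 held 7.16, 6.57 and 7.64 TPM in WT males, 9.53, 11.7 and 10.7 in KO males, 8.57, 8.80 and 8.42 in WT females and 7.26, 6.02 and 7.53 in KO females. The male KO libraries were above all others, and the lowest values lay in male WT and female KO, which overlapped. Male KO exceeded male WT (log2 difference 0.52, SE 0.11, adjusted p = 0.0172) and female KO (0.55, SE 0.12, adjusted p = 0.0238), and the interaction was 0.80 (SE 0.15, adjusted p = 0.00379). The first call was lost without male WT replicate 1 or 2 or male KO replicate 3 (0.45 to 0.59), and the second without male KO replicate 2 or 3 or female KO replicate 1 or 2 (0.47 to 0.62). Fzd1 held 14.3, 15.5 and 13.9 TPM in WT males, 16.5, 19.4 and 17.7 in KO males, 15.7, 13.9 and 15.97 in WT females and 13.9, 11.6 and 11.8 in KO females. It was higher in male than in female KO (log2 difference 0.49, SE 0.10, adjusted p = 0.0184), a call lost without male KO replicate 2 or 3 or female KO replicate 2 or 3 (0.43 to 0.57), and its interaction was 0.55 (SE 0.13, adjusted p = 0.0164).

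Fzd8 and Fzd3 were called between the sexes and not between the genotypes. Fzd8 stood at 10.2, 9.40 and 10.2 TPM in WT males, 10.7, 11.3 and 12.04 in KO males, 6.59, 5.92 and 5.68 in WT females and 6.16, 6.20 and 6.80 in KO females. Every male library was above every female library, and the difference was called in WT (log2 difference 0.63, SE 0.10, adjusted p = 0.0071) and in KO (0.74, SE 0.10, adjusted p = 0.00246). Its interaction was 0.11 (95% interval from -0.16 to 0.38). Fzd3, which serves axon guidance and cell polarity, held 2.01, 1.96 and 2.43 TPM in WT males, 2.03, 3.11 and 1.86 in KO males, 3.50, 3.36 and 4.09 in WT females and 2.54, 2.92 and 2.89 in KO females. Male WT was lower than female WT (log2 difference -0.57, SE 0.14, adjusted p = 0.0426), but the call was lost without any 1 of the 6 WT libraries (-0.64 to -0.50). Fzd9 was called nowhere, at 1.54 ± 0.0970 TPM in male WT, 1.53 ± 0.750 in male KO, 2.10 ± 0.337 in female WT and 1.101 ± 0.359 in female KO (SD, n = 3 each).

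Among the co-receptors, Lrp6 was called in no comparison and Lrp5 only where male KO took part. Lrp6 held 32.8 ± 3.35 TPM in male WT, 30.9 ± 3.14 in male KO, 29.4 ± 1.36 in female WT and 29.1 ± 1.25 in female KO (SD, n = 3 each), with overlap in every comparison of libraries. Lrp5 gave 23.3, 26.0 and 24.6 TPM in WT males, 18.6, 18.2 and 19.7 in KO males, 25.9, 28.8 and 26.0 in WT females and 30.2, 27.9 and 29.97 in KO females. The male KO libraries were below all others. The log2 difference was -0.37 from male WT (SE 0.07, adjusted p = 0.0118) and -0.62 from female KO (SE 0.07, adjusted p = 0.0011), and the interaction was -0.49 (SE 0.09, adjusted p = 0.00418).

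Ror2, a receptor tyrosine kinase for Wnt5a, moved the opposite way to Lrp5. It stood at 23.6, 26.0 and 26.2 TPM in WT males, 29.4, 30.7 and 29.4 in KO males, 26.1, 27.0 and 26.5 in WT females and 24.7, 22.1 and 23.1 in KO females. The male KO libraries were above all others and female KO lay below female WT. The interaction was 0.41 (SE 0.08, adjusted p = 0.00691) and the difference between the KO groups 0.34 (SE 0.06, adjusted p = 0.0125). The difference between the male genotypes was smaller (0.23, SE 0.07, adjusted p = 0.0469) and lost its call without any 1 of the 6 male libraries, at values of 0.19 to 0.26. Its relative Ror1 was called nowhere, at 0.763 ± 0.106 TPM in male WT, 1.44 ± 0.384 in male KO, 1.49 ± 0.352 in female WT and 1.01 ± 0.113 in female KO (SD, n = 3 each). Lgr5, a receptor for R-spondins and a marker of some stem cells, lay under the filter with group means from 0.274 to 0.809 TPM.

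**Figure D4:**
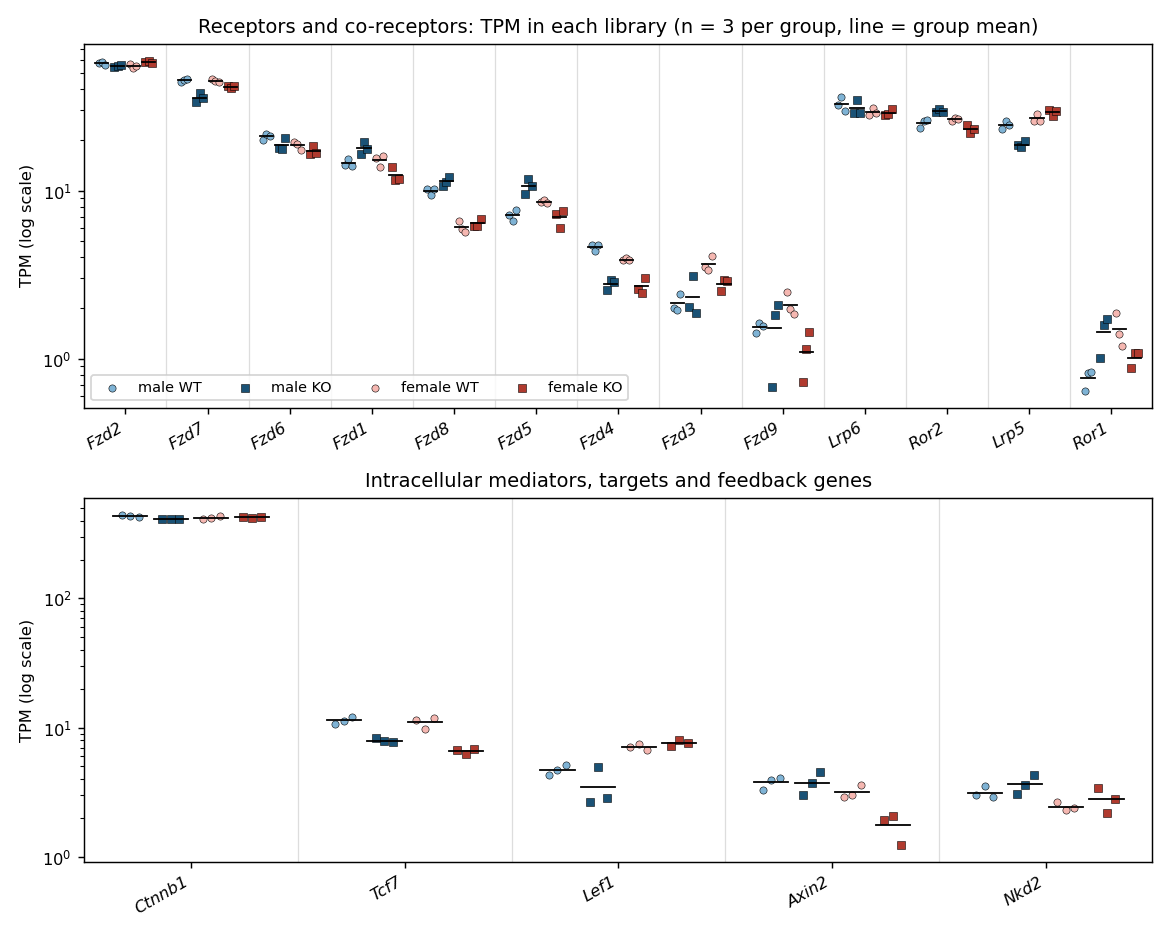
TPM of Wnt receptors and co-receptors (upper panel) and of intracellular mediators, targets and feedback genes (lower panel) in each of the 12 libraries, on log axes, with points for libraries and lines for group means. Fzd2 and Lrp6 are level across the groups, Lrp5 is lowest in male KO (mean 18.8 TPM), and Ror2 and Fzd5 are highest there (29.9 and 10.6), while in the lower panel Tcf7 is lower in KO than in WT of both sexes and Ctnnb1 is level.

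Rspo2 was higher and Rspo3 lower in male KO than in male WT, and Rspo2 had the higher level of the pair in every group. Rspo2 (ENSMUSG00000051920.7, chromosome 15 from 43020794 to 43170826) held 11.0, 10.4 and 10.1 TPM in WT males, 16.01, 17.6 and 17.6 in KO males, 7.73, 7.52 and 6.41 in WT females and 5.92, 6.48 and 6.57 in KO females. Rspo3 (ENSMUSG00000019880.10, chromosome 10 from 29452416 to 29535867) held 7.497, 8.32 and 8.83 TPM in WT males, 1.91, 1.64 and 2.45 in KO males, 3.21, 3.12 and 3.14 in WT females and 2.34, 3.46 and 3.39 in KO females. Male KO was thus the highest group for Rspo2, while male WT was the highest for Rspo3, without overlap with any other group in either case.

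Rspo2 was 1.63-fold higher in male KO than in male WT (log2 difference 0.65, SE 0.08, adjusted p = 0.00186), and Rspo3 was 4.11-fold lower (log2 difference -1.63, SE 0.15, adjusted p = 0.000403). In females the differences were -0.16 (95% interval from -0.42 to 0.09) and -0.04 (95% interval from -0.41 to 0.32). Both interactions were called, at 0.82 (SE 0.12, adjusted p = 0.000973) for Rspo2 and -1.58 (SE 0.21, adjusted p = 0.000344) for Rspo3. In WT, males exceeded females for Rspo2 (0.49, adjusted p = 0.0217) and for Rspo3 (1.15, adjusted p = 0.000915), though the Rspo2 call was lost without any 1 of the male WT libraries or without female WT replicate 2 or 3 (0.41 to 0.53). In KO, males exceeded females for Rspo2 (1.30, SE 0.09, adjusted p = 0.000127). The summed R-spondin level stayed at 19.6 ± 0.375 TPM in the WT and 19.2 ± 1.102 in the KO males, and at 10.6 ± 0.806 and 9.70 ± 0.890 in the female groups (SD, n = 3 each). Rspo1, under the filter, averaged 0.906 TPM in male WT, 0.104 in male KO, 0.249 in female WT and 0.293 in female KO. In the fit without the filter it was lower in male KO (log2 difference -0.78, SE 0.08, adjusted p = 0.00685).

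Of the secreted antagonists, Sfrp2 differed in opposite directions between the sexes, Dkk3 was higher in KO of both, and Sfrp1 and Dkk2 were called in males and not in females. All 4 tested members were called between the male genotypes and by interaction, beside 21.6% and 13.0% of all genes tested. The summed level of all 10 secreted antagonists was 54.7 ± 1.40 TPM in WT males and 143 ± 5.57 in KO males, but 118 ± 4.62 in female WT and 62.1 ± 1.70 in female KO (SD, n = 3 each). Sfrp2 made up most of it in each group, from 60.3% ± 3.46 in female KO to 84.3% ± 1.59 in female WT.

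Sfrp2 (ENSMUSG00000027996.13, chromosome 3 from 83766321 to 83774316), a secreted decoy with the ligand-binding domain of Frizzled, stood at 38.7, 37.5 and 40.9 TPM in WT males, 91.5, 101 and 97.3 in KO males, 104, 102 and 93.5 in WT females and 36.0, 39.9 and 36.5 in KO females. The libraries fell into a high pair of groups, male KO and female WT, and a low pair, male WT and female KO, with nothing between 40.9 and 91.5 TPM. Male KO was 2.47-fold higher than male WT (log2 difference 1.28, SE 0.06, adjusted p = 1.98e-05), and female KO was 2.66-fold lower than female WT (log2 difference -1.39, SE 0.06, adjusted p = 7e-05). The interaction was 2.67 (SE 0.08, adjusted p = 8.89e-09). Between the sexes the differences were -1.33 in WT (adjusted p = 3.01e-05) and 1.34 in KO (adjusted p = 2.06e-05). The window printed before it above holds no TCF/LEF core.

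Dkk3 (ENSMUSG00000030772.6, chromosome 7 from 112116017 to 112159057), a divergent Dickkopf member whose action on Wnt signals varies with the cell, was higher in KO of both sexes. Its TPM were 5.59, 6.21 and 5.88 in male WT, 34.1, 33.3 and 35.9 in male KO, 8.96, 8.13 and 8.76 in female WT and 15.7, 14.2 and 16.5 in female KO. No 2 groups overlapped, and the male groups lay at either end. The fold was 5.84 in males (log2 difference 2.36, SE 0.08, adjusted p = 7.67e-06) and 1.80 in females (log2 difference 0.78, SE 0.09, adjusted p = 0.00287), with an interaction of 1.59 (SE 0.11, adjusted p = 2.5e-06). Male KO exceeded female KO (1.11, adjusted p = 0.000127). Male WT was lower than female WT (-0.48, adjusted p = 0.0187), a call lost without male WT replicate 1 or 3 or female WT replicate 1 or 3 (-0.52 to -0.45).

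Sfrp1 (ENSMUSG00000031548.7, chromosome 8 from 23411502 to 23449632) and Dkk2 (ENSMUSG00000028031.6, chromosome 3 from 132085292 to 132180304) were called between the genotypes in males alone and moved in opposite directions. Sfrp1, a decoy like Sfrp2, held 1.14, 1.90 and 1.54 TPM in WT males, 6.36, 7.498 and 8.18 in KO males, 2.67, 2.52 and 3.27 in WT females and 2.63, 2.54 and 3.83 in KO females. Male KO was above all other libraries and male WT below them, while the female groups overlapped. The log2 difference was 1.73 in males (SE 0.17, adjusted p = 0.000537) and 0.06 in females (95% interval from -0.35 to 0.47), and the interaction was 1.67 (SE 0.24, adjusted p = 0.000664). Male KO also exceeded female KO (1.07, adjusted p = 0.00591).

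Dkk2, an antagonist at Lrp5 and Lrp6, held 7.96, 8.20 and 7.67 TPM in WT males, 4.28, 4.10 and 4.02 in KO males, 6.28, 5.81 and 6.61 in WT females and 5.32, 4.69 and 6.06 in KO females. Male WT was highest and male KO lowest, and the female groups between them overlapped. It was 1.92-fold lower in male KO (log2 difference -0.80, SE 0.10, adjusted p = 0.00192), the female difference was -0.19 (95% interval from -0.48 to 0.09), and the interaction was -0.61 (SE 0.14, adjusted p = 0.0152). The other 6 antagonists, Sfrp4, Sfrp5, Frzb, Wif1, Dkk1 and Dkk4, had group means of 0.365 TPM or less. Dkk1, whose window holds 2 TCF/LEF cores, reached 0.0445 TPM at most in a group mean and was listed at 0 in every male library. Frzb was listed at 0 in every male WT library and at 0.349, 0.367 and 0.253 TPM in female WT, and in the fit without the filter it was called lower in male than in female WT (adjusted p = 0.00853).

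**Figure D5:**
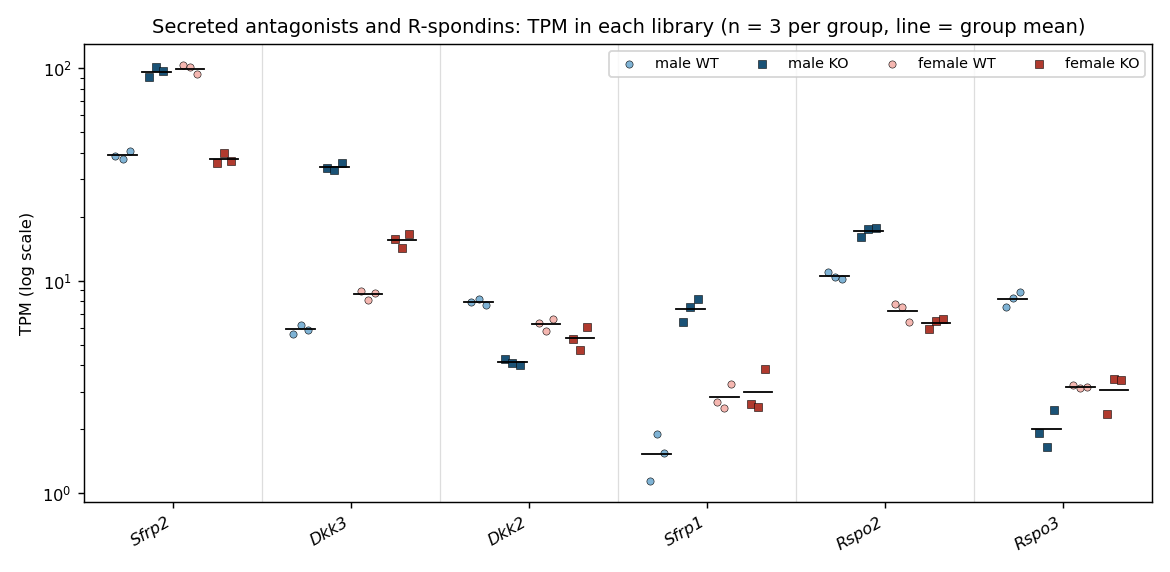
TPM of the secreted antagonists and R-spondins in each of the 12 libraries, on a log axis, with points for libraries and lines for group means. Sfrp2 is near 100 TPM in male KO and female WT (means 96.6 and 99.7) and near 38 in the other 2 groups (39.1 and 37.5), Dkk3 is highest in male KO (34.4), and Rspo3 falls from 8.21 in male WT to 1.999 in male KO.

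Inside the cell the signal is carried by beta-catenin, whose mRNA is abundant and is regulated chiefly as a protein. Ctnnb1 stood at 436 ± 9.49 TPM in male WT, 413 ± 2.05 in male KO, 423 ± 13.5 in female WT and 424 ± 3.75 in female KO (SD, n = 3 each) and was called in no comparison, with log2 differences between genotypes of -0.08 in males (95% interval from -0.15 to -0.01) and 0.0038 in females (95% interval from -0.07 to 0.08). Tcf7, which encodes a nuclear partner, was lower in KO of both sexes. It held 10.6, 11.3 and 12.2 TPM in WT males, 8.26, 7.82 and 7.72 in KO males, 11.5, 9.77 and 11.9 in WT females and 6.66, 6.27 and 6.80 in KO females, so that both KO groups lay below both WT groups. The log2 difference was -0.47 in males (SE 0.09, adjusted p = 0.0123) and -0.67 in females (SE 0.10, adjusted p = 0.00997), and the interaction was 0.20 (95% interval from -0.08 to 0.48). The male call was lost without male WT replicate 3 (-0.51 to -0.42 with 1 library left out).

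Lef1, a partner of the same family, differed between the sexes. The libraries gave 4.32, 4.67 and 5.13 TPM in WT males, 2.65, 4.96 and 2.85 in KO males, 7.03, 7.44 and 6.76 in WT females and 7.17, 8.05 and 7.55 in KO females, so that every male library lay below every female library. The difference was -0.50 in WT (SE 0.11, adjusted p = 0.0244) and -0.97 in KO (SE 0.20, adjusted p = 0.0184). Leaving out 1 library ended the WT call for male WT replicates 1 and 2 and each female WT library (-0.56 to -0.45), and the KO call for male KO replicates 1 and 3 and each female KO library (-1.20 to -0.84).

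Axin2, a feedback inhibitor widely read as a target of beta-catenin, was lowest in female KO. It held 3.32, 3.91 and 4.09 TPM in WT males, 3.01, 3.70 and 4.54 in KO males, 2.89, 3.01 and 3.61 in WT females and 1.94, 2.08 and 1.23 in KO females. Female KO overlapped no other group, and the other 3 overlapped. Male KO exceeded female KO (log2 difference 0.79, SE 0.20, adjusted p = 0.0368), a call lost without male KO replicate 2 or 3 or any 1 of the female KO libraries (0.64 to 0.91). Between the genotypes the log2 difference was -0.02 in males (95% interval from -0.40 to 0.37) and -0.61 in females (95% interval from -1.03 to -0.19, adjusted p = 0.0744). Of the Naked cuticle feedback genes, Nkd2 was called nowhere, at 3.13 ± 0.328 TPM in male WT, 3.66 ± 0.617 in male KO, 2.45 ± 0.170 in female WT and 2.79 ± 0.595 in female KO (SD, n = 3 each), and Nkd1 lay under the filter with group means from 0.537 to 0.759 TPM.

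The wider pathway was read from 61 genes listed by role, of which 54 were tested. In males 22 were called between the genotypes, 14 higher and 8 lower in KO, and in females 13, 9 higher and 4 lower, beside the same 21.6% and 11.5% of all genes. The R-spondin receptors diverged in males: Lgr6 was 33.9 ± 2.61 TPM in WT and 9.92 ± 1.31 in KO (log2 difference -1.68, adjusted p = 9.59e-05), and Lgr4 was 17.5 ± 0.718 and 48.4 ± 4.58 (1.42, adjusted p = 5.18e-05). Rnf43, a ubiquitin ligase that clears Frizzled receptors from the surface, was also higher in male KO (1.24, adjusted p = 0.0243). It measured 1.39 ± 0.534 TPM in male WT, 4.78 ± 2.04 in male KO and only 0.565 ± 0.559 in female KO. The glypican Gpc3 was higher in male KO as well (1.05, adjusted p = 2.65e-05). These 4 showed the largest differences among the 8 of 14 surface genes called in males. In females 4 surface genes were called, all higher in KO, led by the Wnt inhibitor Apcdd1 (0.73, adjusted p = 0.00225) and the glypican Gpc4 (0.68, adjusted p = 0.00077).

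Of 8 polarity genes tested, 4 were called in males, all higher in KO, beside 21.6% of all genes in either direction, with Celsr2, a cadherin of planar cell polarity, at 1.80 ± 0.858 TPM in WT and 9.66 ± 2.28 in KO (1.95, adjusted p = 0.00255). In females Vangl1 (-0.46, adjusted p = 0.0271) and Daam1 (-0.39, adjusted p = 0.0285) of the same list were lower in KO, beside 11.5% of all genes called. Of the 21 genes of signal transduction 4 were called in males, a share near those 21.6%, with Pygo1 (0.68, adjusted p = 0.0203) and Tcf7l2 (-0.52, adjusted p = 0.0172) first, and Nxn in females (0.29, adjusted p = 0.0246). Pygo1 passed the filter through the KO groups, with means of 0.963 TPM in male WT and 0.992 in female WT. Neither Porcn nor Wls, which prepare and carry the ligands for secretion, was called between the genotypes of either sex.

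Genes often named as targets of the pathway did not move one way. Of 13 tested, 7 were called in males, 4 higher and 3 lower in KO, and 7 in females, 5 higher and 2 lower, beside 21.6% and 11.5% of all genes. The lists share some genes, so Rnf43 in males and Apcdd1 in females were also counted among the surface genes. Ccnd1, which encodes the cell cycle regulator cyclin D1, was 65.0 ± 1.51 TPM in WT males and 30.4 ± 0.321 in KO males (log2 difference -1.07, adjusted p = 1.92e-05), but 56.3 ± 1.59 in female WT and 86.2 ± 4.12 in female KO (0.61, adjusted p = 0.000721), with an interaction of -1.68 (adjusted p = 3.6e-08). Ccn5, a secreted matrix-associated protein, was higher in KO of both sexes, at 184 ± 11.6 and 291 ± 6.24 TPM in male WT and KO (0.66, adjusted p = 0.000199) and 15.8 ± 0.953 and 96.5 ± 6.37 in female WT and KO (2.54, adjusted p = 1.43e-05). The Notch ligand Jag1 rose in both, by 0.85 in males (adjusted p = 0.000187) and 0.80 in females (adjusted p = 0.000307). Between the sexes 16 of the 54 wider genes were called in WT and 16 in KO, and 19 by interaction, beside 12.8%, 16.6% and 13.0% of all genes. Among the surface genes Lgr6 (1.56, adjusted p = 4.79e-05) and Gpc3 (1.01, adjusted p = 0.000498) were higher in male than in female WT, and Gpc3 (1.92, adjusted p = 3.4e-06) and Rnf43 (1.88, adjusted p = 0.011) in male than in female KO.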

How the data were processed

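The authors sequenced polyadenylated RNA of the 12 libraries at a service provider, counted reads per gene on GRCm38 with Salmon (version 1.10.1 per the labels' processing notes), and deposited TPM for 34866 genes. The authors' methods name a target number of reads per library, but TPM keep no read totals, so the depth reached is unknown and no counting error can be given. Trimming was done before deposit. All 12 value columns matched a label and no 2 were identical.

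Since a count test does not suit TPM, log2(TPM+1) values (pseudocount 1) were fitted in limma 3.58.1 (R 4.3.3) with a mean-variance trend. The fit held the 12504 genes that averaged 1 TPM or more. P-values were adjusted by the Benjamini-Hochberg method over all genes tested, and an adjusted p under 0.05 made a call. The 4 comparisons of 2 groups were fitted on 6 libraries each and the interaction on 12. Members under the filter were taken from a fit of 22401 genes without it. SE and 95% intervals come from the same fits. On simulated data these recovered 68% to 83% of log2 changes of 1 and 92% to 99% of changes of 2. False calls made up 1.65% to 6.19% of the calls. The simulated noise was independent, with the spread of these libraries, so it cannot show effects of a line or culture. The named genes are the Wnt genes that reach 1 TPM overall or in a group, and up to 4 genes for each wider list and comparison, those with the largest differences among the called. The members and lists were chosen with earlier results of these data known.

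Gene positions came from GENCODE M21 (GRCm38), to which 99.4% of identifiers matched, and promoter windows from RefSeq (GRCm38.p6). Alternatives were leaving out each library, blocking on the replicate number, a fit of all 12 libraries together, no trend, quantile normalization, scaling by median-of-ratios, a pseudocount of 0.1, no filter, and a filter at a mean of 5 TPM. Python 3.11.15 was used for tables and figures.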

Additional observations from a re-analysis of the deposited data

Results flagged for a closer look

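The results below stand out because the KO to WT difference was unequal between the sexes by limma's interaction test at an adjusted p under 0.05. Each value is the KO minus WT difference in males less that in females, on the log2(TPM+1) scale. Among the ligands it was 1.82 for Wnt10a, 1.66 for Wnt16, 0.81 for Wnt11, -1.17 for Wnt5a, -1.33 for Wnt9a and -2.62 for Wnt10b. Among the receptors it was 0.80 for Fzd5, 0.55 for Fzd1, 0.41 for Ror2 and -0.49 for Lrp5. The R-spondins gave 0.82 for Rspo2 and -1.58 for Rspo3. The secreted antagonists gave 2.67 for Sfrp2, 1.67 for Sfrp1, 1.59 for Dkk3 and -0.61 for Dkk2. Below the filter on low values, Wnt6 gave 0.93 and Rspo1 gave -0.83 in the fit without it.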

How the results depend on the processing

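None of the 70 single-gene calls changed direction under any alternative, and 48 passed under every alternative run. The other 22 lost their call in at least 1: 20 when a library was left out, 15 with the replicate number as a block, 10 without the filter, and 1 each with quantile normalization, no trend and all 12 libraries in one fit. With limma, the call of Wnt10b between the female genotypes (adjusted p = 0.0506) and that of Ror2 between the KO groups (adjusted p = 0.053) were lost under the replicate block and under no other alternative. The number of Wnt genes called between male WT and female WT fell from 12 to 7 with the replicate block and ranged from 7 to 8 when a library was left out. The cause was not tested, though fits without a library rest on fewer samples. Left-out libraries gave 14 to 17 in the male, 6 to 7 in the female and 11 to 14 in the KO comparison, and 15 to 18 for the interaction. Same-numbered libraries did not deviate together (correlations between -0.0571 and 0.0779), so the numbers were not taken as pairs. Under the replicate block the counts were 15 in males, 6 in females, 11 between the KO groups and 16 for the interaction. A pseudocount of 0.1 moved Wnt7a, Wnt4 and Wnt2b by over 1.5 times. With 3 libraries a group and depth unknown, changes of genes under 1 TPM are weakly measured.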

Other observations

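Several ligand genes lie beside each other on the chromosome, as Wnt genes do in many animals. In 3 of the 4 pairs of neighbours the levels lay far apart, and in the other both genes were near 0. Wnt10a and Wnt6 lie 6193 bases apart on chromosome 1, both on the plus strand, and both were highest in male KO, at 47.2 and 1.501 TPM. Wnt10b and Wnt1 lie 11706 bases apart on chromosome 15 on opposite strands, and Wnt1 stayed between 0.129 and 0.253 TPM in the group means while Wnt10b ran from 1.68 to 23.3. Wnt9a and Wnt3a are separated by 16175 bases on chromosome 11, where Wnt3a was at 0.0138 TPM or less and Wnt9a at 5.80 or more in every group mean. Wnt3 and Wnt9b, 24328 bases apart on the same chromosome, were both at 0.117 TPM or less.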
